A study of Homo sapiens with 8 samples.

Results

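Semaphorins, plexins and neuropilins make up a family of 31 protein-coding genes in the count tables of a human leukemia line, out of 19951 protein-coding genes and 58735 gene IDs in all. The members are 20 semaphorins, 9 plexins and both neuropilins, taken by symbol. The semaphorins carry the symbols SEMA3 to SEMA7, the plexins PLXNA to PLXND, and NRP1 and NRP2 complete the set. The family was chosen by the low NRP2 level (CPM) in the vehicle cultures against parental cells, so the values of NRP2 against parental cells are given as a description and not as a test.

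The study derived busulfan-resistant cells from the acute myeloid leukemia line MOLM-13, and its samples also include vehicle cultures. RNA was sequenced in bulk. The 4 libraries used here are untreated parental cells (the sample labelled replicate 2) and cells after course 1, 3 or 5 with the vehicle dimethyl sulfoxide (DMSO, 1%). Each state has 1 library, all come from the same line, and no busulfan reached any of them. The busulfan libraries and the other parental library were not analysed here. The labels give no passage number for the vehicle cultures, so time in culture and number of courses cannot be told apart. Gene counts ran from 44795976 to 56825811 per library.

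Semaphorins are secreted or membrane-bound guidance cues, and plexins are their main receptors. Plexins act on the cytoskeleton and on integrin adhesion through small GTPases. Class 3 semaphorins are secreted and mostly need a neuropilin as co-receptor beside a class A plexin, whereas classes 4 to 7 usually bind plexins directly. Neuropilins also bind vascular endothelial growth factors (VEGF). In blood cells, semaphorins and plexins are known from migration, immune cell contacts and myeloid adhesion.

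The defining genes of the myeloid line were present, and the libraries differed from each other beyond this family. All 10 myeloid markers (among them CD33, FLT3, MPO and SPI1) had a mean of at least 1 CPM. CPM is the count scaled to a common library size. The summed level of these markers lay between 2338 and 3235 CPM. Only CSF1R was at least 2-fold from parental cells, at 21.7 CPM in course 5 against 49.0 CPM. MPO was at least 2-fold lower in course 5 (335.6 CPM) than in courses 1 and 3 (932.1 and 739.0 CPM). Among markers of other cells, the endothelial CDH5, TEK and EMCN, the B cell gene MS4A1, the neuronal RBFOX3, the fibroblast COL3A1 and DCN and the epithelial KRT19 had 0 counts in every library. The summed endothelial list lay between 131.2 and 184.3 CPM, nearly all of it PECAM1, and the lymphoid list between 100.7 and 213.0 CPM, mostly NCAM1. The epithelial list was at 40.2 CPM in parental cells and 20.3, 12.3 and 10.4 CPM in courses 1, 3 and 5, the neuronal list between 0.198 and 2.11 CPM and the fibroblast list between 1.23 and 3.31 CPM. Several of these markers were, like NRP2 and SEMA6A, highest in parental cells and low in courses 3 and 5. In parental cells and courses 1, 3 and 5, the T cell gene CD3D had 243, 24, 3 and 4 counts, the endothelial CLDN5 62, 7, 2 and 1, the fibroblast COL1A1 186, 108, 10 and 5, and the neuronal SNAP25 102, 47, 17 and 6. The endothelial VWF had 108, 98, 23 and 13 counts in that order. Its CPM was highest in course 1, at 2.27 against 1.83 in parental cells. The fibroblast LUM had 1, 15, 46 and 52 counts. The part of these genes in the results was not tested. Course 1 stood apart from the later courses, with 19.5% of 13589 genes at least 2-fold different between courses 1 and 5 and 2.47% between courses 3 and 5.

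Of the 31 members, 19 had a mean of at least 1 CPM over the 4 libraries (11 semaphorins, 7 plexins and NRP2). CPM was scaled for composition by the TMM method. The levels of these 19 and of SEMA6A are shown by library.

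**Figure D1:**
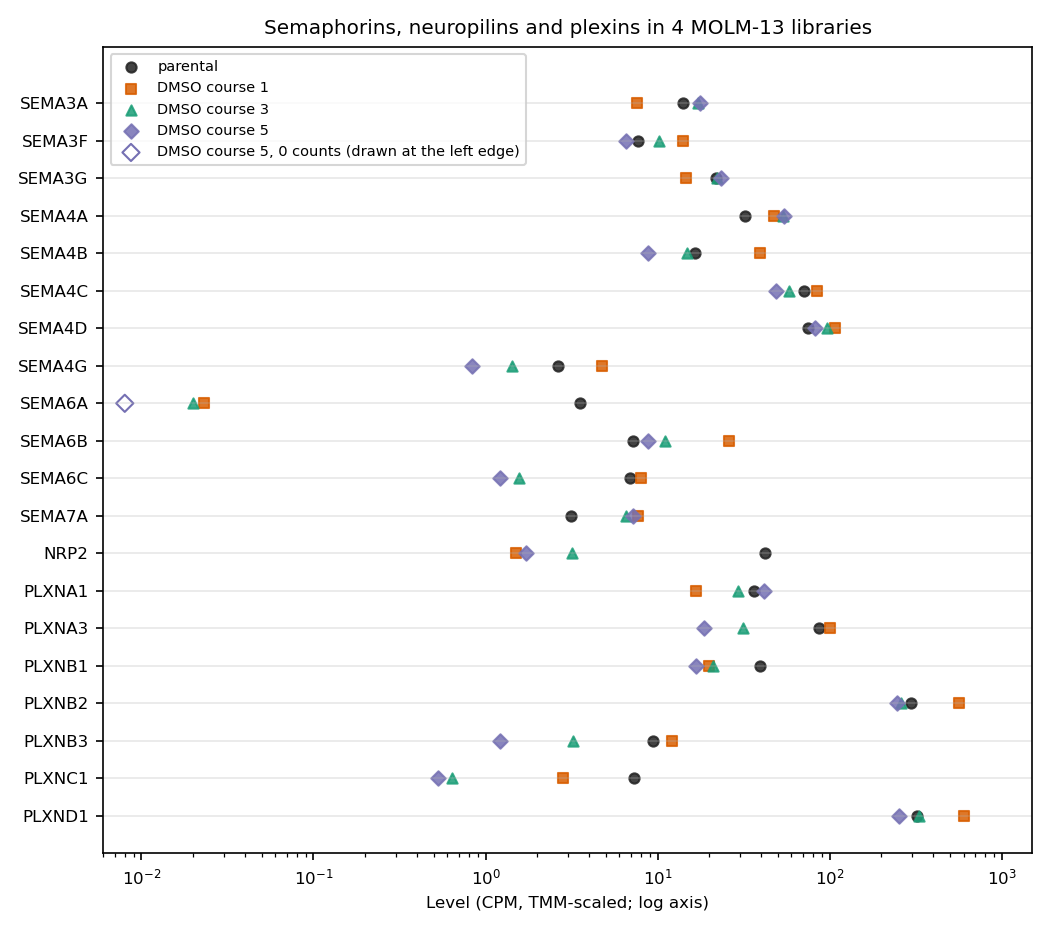
Levels in CPM (log axis) of 19 members with a mean of at least 1 CPM and of SEMA6A, 1 symbol per library. NRP2 and SEMA6A are highest in parental cells, PLXNB2 and PLXND1 are the members with the most counts in each library, and SEMA6A had 0 counts in course 5.

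NRP2 was above NRP1 in all 4 libraries, by far the most in parental cells. NRP2 (ENSG00000118257, chromosome 2), co-receptor for SEMA3F and for VEGF-C, stood at 41.9 CPM in parental cells (2482 counts). It stood at 1.51 CPM (65 counts), 3.17 CPM (159 counts) and 1.71 CPM (78 counts) in courses 1, 3 and 5. All vehicle libraries were thus below the parental one, by log2 ratios of -4.80 (95% counting interval -5.18 to -4.44), -3.73 (-3.97 to -3.50) and -4.62 (-4.96 to -4.29). These intervals, like all others here, cover counting error only. Among the vehicle libraries, NRP2 was 2.10-fold higher in course 3 than in course 1 (log2 ratio 1.07, interval 0.64 to 1.51), and courses 1 and 5 differed by a log2 ratio of 0.18 (-0.31 to 0.68). NRP1 (ENSG00000099250), the co-receptor for SEMA3A and VEGF-A, lay at 0.777, 0.766, 0.697 and 0.987 CPM in parental cells and courses 1, 3 and 5. All its intervals against parental cells included a ratio of 1. Per kilobase of exon, NRP2 made up 97.8% of the neuropilin level in parental cells and 62.0%, 79.0% and 59.0% in courses 1, 3 and 5. In a bulk library, fewer cells with a transcript and less transcript per cell cannot be told apart.

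The start of NRP2 is shown because its ratios to parental cells are the farthest from 1 among the 19 members. The 250 bases before its RefSeq start (GRCh38.p14, chr2:205682251-205682500, plus strand) are printed with GC boxes (GGGCGG on either strand) in capitals.
NRP2: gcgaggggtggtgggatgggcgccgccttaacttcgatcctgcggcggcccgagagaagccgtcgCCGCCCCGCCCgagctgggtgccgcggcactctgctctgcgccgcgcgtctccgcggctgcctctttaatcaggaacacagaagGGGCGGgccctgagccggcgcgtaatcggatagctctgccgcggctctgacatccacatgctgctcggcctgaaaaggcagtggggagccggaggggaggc
This stretch holds 3 GC boxes, the first and second of which share a base, and 29 CpG dinucleotides against a median of 11 over 35116 RefSeq promoters. GC boxes occur in 42.6% of those promoters.

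SEMA6A was present in parental cells and nearly gone in every vehicle library. This class 6 transmembrane semaphorin (ENSG00000092421, chromosome 5), a ligand of PLXNA2 and PLXNA4, had 209 counts (3.53 CPM) in parental cells, 1 count in course 1, 1 count in course 3 and 0 counts in course 5. With so few counts the log2 ratios are loose, at -7.25 (interval -12.56 to -4.76) in course 1 and -7.47 (-12.78 to -4.98) in course 3. In course 5 SEMA6A was 53.7-fold lower when 3 counts were taken in place of the 0. The upper end of its counting interval was a log2 ratio of -5.44. Its antisense neighbour SEMA6A-AS1 stood at 157, 80, 135 and 96 counts in parental cells and courses 1, 3 and 5, so the antisense gene did not show the near-absence of SEMA6A. The mean of SEMA6A was 0.894 CPM, just outside the 1 CPM minimum, and it is missing from the counts of members at least 2-fold apart. NRP1 at 0.807 CPM was also just outside, and SEMA4G at 2.41 CPM and PLXNC1 at 2.83 CPM were the nearest inside. The known receptors of SEMA6A were themselves scarce. PLXNA2 had 26, 8, 0 and 3 counts in parental cells and courses 1, 3 and 5, and PLXNA4 had 17, 7, 11 and 1.

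Each vehicle library was set against the same parental library, so these comparisons share it and are not independent of each other. In course 1, 3 of 19 members were at least 2-fold higher (SEMA4B, SEMA6B and SEMA7A) and 3 lower (NRP2, PLXNA1 and PLXNC1), which is 31.6% of the 19. Of all 13589 genes 10.5% were apart, 4.83% higher and 5.69% lower. Without composition scaling, all ratios of course 1 to parental cells shift by -0.114 on the log2 scale, and the split becomes 3 higher and 5 lower, with PLXNB1 and SEMA3A added. In course 3, 1 member was higher (SEMA7A) and 5 were lower (NRP2, PLXNA3, PLXNB3, PLXNC1 and SEMA6C), again 31.6%. Of all genes 7.69% were apart, 3.56% higher and 4.13% lower. Without composition scaling that split is 0 higher and 5 lower. In course 5, 1 member was higher (SEMA7A) and 7 were lower, the 5 of course 3 with PLXNB1 and SEMA4G. That is 42.1%, while 11.6% of all genes were apart, 4.24% higher and 7.32% lower. The median log2 ratio of the 19 members was 0.37, -0.21 and -0.34 in courses 1, 3 and 5, beside 0.02, 0.01 and 0.02 for all genes. NRP2 is part of these counts and was chosen for its low level against parental cells, and the 1 CPM minimum favours genes that are high somewhere, so the shares describe the family and do not test it.

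**Figure D2:**
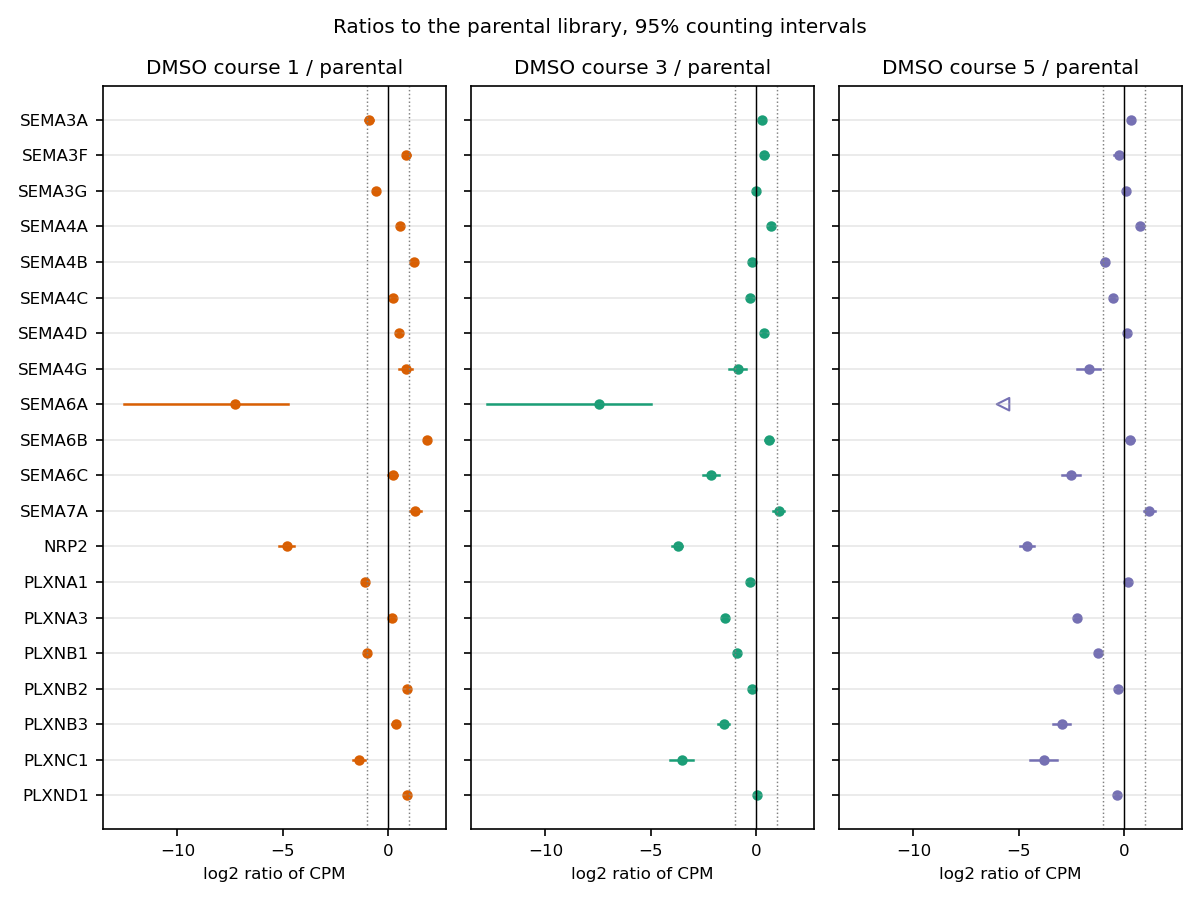
Log2 ratios of CPM to parental cells in courses 1, 3 and 5 with 95% counting intervals as lines, and dotted lines at 2-fold. The open triangle for SEMA6A in course 5 is drawn at -5.75, with 3 counts in place of 0. NRP2, PLXNC1 and SEMA7A are on the same side of 0 in each panel.

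PLXNC1 and its ligand SEMA7A went in opposite directions from parental cells. PLXNC1 (ENSG00000136040, chromosome 12), a receptor on myeloid cells, stood at 7.33 CPM (434 counts) in parental cells and at 2.83 CPM (122 counts), 0.637 CPM (32 counts) and 0.527 CPM (24 counts) in courses 1, 3 and 5. The libraries were in descending order, although courses 3 and 5 differed by a log2 ratio of -0.28 with an interval of -1.10 to 0.53. Against parental cells the log2 ratios of PLXNC1 were -1.37, -3.53 and -3.80. SEMA7A (ENSG00000138623, chromosome 15), a membrane semaphorin held by a lipid anchor that also binds integrins, stood at 3.13 CPM in parental cells and at 7.66, 6.59 and 7.15 CPM in courses 1, 3 and 5. All vehicle libraries were above the parental one, by log2 ratios of 1.29, 1.08 and 1.19, and among themselves their intervals included a ratio of 1.

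PLXNA3, PLXNB3 and SEMA6C kept a level near the parental one in course 1 and were low in courses 3 and 5. PLXNA3 (ENSG00000130827, chromosome X), the class A plexin that works with NRP2 for SEMA3F, stood at 86.6 CPM in parental cells and 100.04, 31.4 and 18.6 CPM in courses 1, 3 and 5. The highest and lowest libraries, courses 1 and 5, were 5.37-fold apart. PLXNB3 (ENSG00000198753), also on chromosome X and a receptor for SEMA5A, stood at 9.40, 12.1, 3.22 and 1.21 CPM in the same order. Its difference from course 3 to course 5, a log2 ratio of -1.42 (interval -1.89 to -0.97), was the 1 difference of at least 2-fold between those courses among the 19 members. Below the 1 CPM minimum, SEMA3B (28 and 5 counts) and PLXNA4 (11 and 1 counts) were also lower in course 5 than in course 3, by log2 ratios of -2.35 (-4.08 to -0.95) and -3.32 (-8.75 to -0.54). SEMA6C (ENSG00000143434, chromosome 1), a transmembrane class 6 semaphorin, stood at 6.89, 8.05, 1.57 and 1.21 CPM. For SEMA6C, courses 3 and 5 did not differ beyond counting error (log2 ratio -0.38, interval -0.91 to 0.13). The SEMA5A ligand of PLXNB3 had 1 count in course 1 and 0 counts elsewhere.

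The starts of these 3 genes are printed because, of the 19 members, these 3 were within 2-fold of parental cells in course 1 and at least 2-fold lower in both courses 3 and 5, with the same window, build and capitals as for NRP2. They lie at chrX:154458031-154458280 (plus strand), chrX:153763999-153764248 (plus strand) and chr1:151146632-151146881 (minus strand).
PLXNA3: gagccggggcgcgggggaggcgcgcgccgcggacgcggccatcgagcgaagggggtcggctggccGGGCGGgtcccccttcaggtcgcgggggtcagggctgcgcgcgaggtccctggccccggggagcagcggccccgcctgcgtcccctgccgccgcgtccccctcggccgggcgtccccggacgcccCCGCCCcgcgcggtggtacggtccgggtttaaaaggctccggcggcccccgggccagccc
PLXNB3: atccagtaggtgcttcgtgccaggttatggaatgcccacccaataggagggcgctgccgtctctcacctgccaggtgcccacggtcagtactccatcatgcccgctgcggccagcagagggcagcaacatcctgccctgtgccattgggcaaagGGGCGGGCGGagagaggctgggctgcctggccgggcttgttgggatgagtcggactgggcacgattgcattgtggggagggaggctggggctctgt
SEMA6C: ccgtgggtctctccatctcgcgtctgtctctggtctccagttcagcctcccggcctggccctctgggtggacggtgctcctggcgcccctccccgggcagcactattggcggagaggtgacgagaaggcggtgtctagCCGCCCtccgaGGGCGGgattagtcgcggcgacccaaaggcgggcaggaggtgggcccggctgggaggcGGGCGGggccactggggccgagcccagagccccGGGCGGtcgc
PLXNA3 holds 2 GC boxes and 41 CpG dinucleotides, PLXNB3 holds 2 boxes that share bases and 11 CpG, and SEMA6C holds 4 boxes and 24 CpG. The E box CACGTG (6.34% of all promoters) and TATAAA (10.7%) were not found on either strand in any of the 4 stretches. The order of levels of these 3, with course 1 highest, then parental cells, course 3 and course 5, was also that of PLXNB2, SEMA4B, SEMA4C and SEMA4G. A match of letters is a description and not a binding site.

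The plexins with the highest levels were PLXNB2 and PLXND1. PLXNB2 (ENSG00000196576), a receptor for SEMA4C and SEMA4D, stood at 298.2, 563.3, 258.5 and 245.5 CPM in parental cells and courses 1, 3 and 5. PLXND1 (ENSG00000004399), known as the receptor for SEMA3E, stood at 320.4, 607.5, 332.4 and 252.9 CPM. Both were highest in course 1, where they lay 1.89-fold and 1.90-fold above parental cells, just under the 2-fold mark. Per kilobase of exon, PLXNB2 made up 45.2% to 50.4% and PLXND1 36.2% to 43.9% of the plexin level in each library. The plexin sum was 90.9, 154.2, 77.8 and 67.1 CPM per kb in parental cells and courses 1, 3 and 5. PLXNB1, the best known SEMA4D receptor, was highest in parental cells at 39.5 CPM and stood at 20.0, 21.1 and 16.7 CPM in courses 1, 3 and 5. PLXNA1, a partner of NRP1 for SEMA3A, had its lowest level in course 1 at 16.7 CPM, against 36.2, 29.2 and 41.4 CPM in parental cells and courses 3 and 5.

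**Figure D3:**
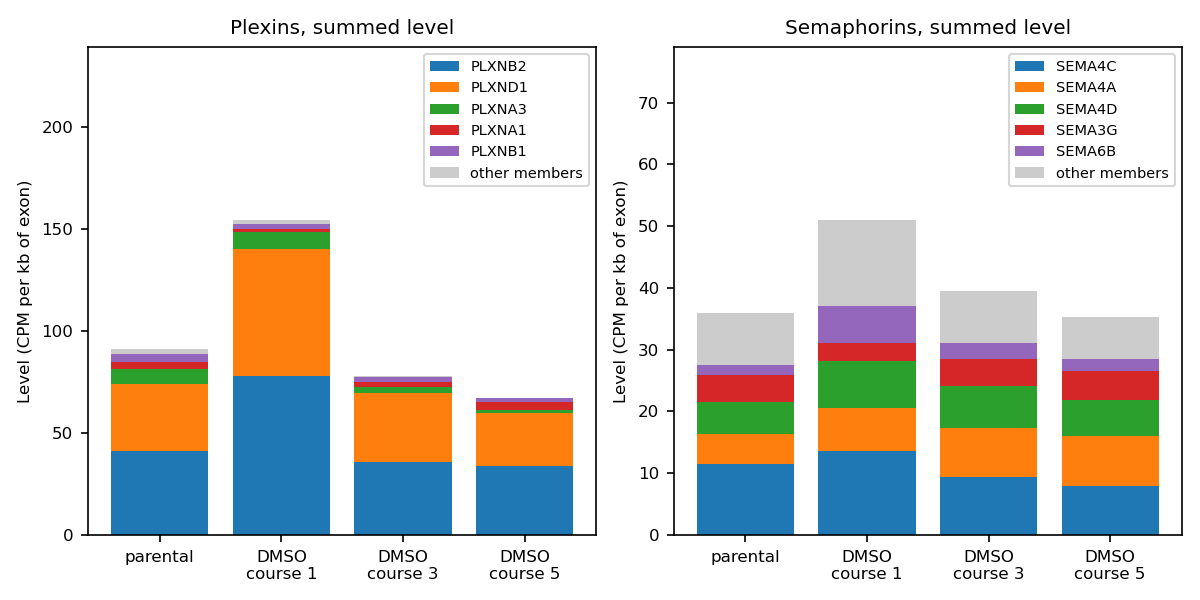
Summed level per kilobase of exon (CPM per kb) of plexins on the left and semaphorins on the right, 1 bar per library, stacked by the 5 highest genes and all other members. Course 1 has the tallest bar in both panels, and PLXNB2 with PLXND1 fill most of each plexin bar.

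Class 4 semaphorins were the main part of the semaphorin level. Per kilobase of exon, SEMA4C made up 22.6% to 32.1% of the semaphorin sum, SEMA4D 14.6% to 17.2% and SEMA4A 13.2% to 22.7%. SEMA4A, which acts in T cell contacts, stood at 32.4 CPM in parental cells and at 47.5, 53.7 and 54.6 CPM in courses 1, 3 and 5, above parental cells in all 3. SEMA4D, a ligand of PLXNB1 shed by proteases, varied little, between 74.6 CPM in parental cells and 107.6 CPM in course 1. SEMA4C ran from 49.0 CPM in course 5 to 84.2 CPM in course 1. SEMA4B stood at 16.6, 39.3, 14.7 and 8.80 CPM in parental cells and courses 1, 3 and 5, and SEMA4G at 2.64, 4.73, 1.43 and 0.834 CPM in that order. SEMA4B and SEMA4G thus had the same order, with course 1 highest and course 5 lowest. SEMA6B, a class 6 ligand of PLXNA4, was also highest in course 1, at 26.0 CPM against 7.22, 10.97 and 8.80 CPM in parental cells and courses 3 and 5. SEMA4F had at most 9 counts.

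The secreted class 3 semaphorins split between the libraries. SEMA3A (ENSG00000075213), the classical ligand of NRP1 with class A plexins, stood at 14.1, 7.57, 17.1 and 17.6 CPM in parental cells and courses 1, 3 and 5, and SEMA3G at 22.0, 14.6, 22.2 and 23.5 CPM. Both were lowest in course 1. SEMA3F, the main NRP2 ligand of the class, was highest there, at 14.1 CPM against 7.72, 10.2 and 6.52 CPM in parental cells and courses 3 and 5. SEMA3B had 25, 61, 28 and 5 counts in parental cells and courses 1, 3 and 5. SEMA3C, SEMA3E and SEMA6D had 0 counts in all 4 libraries, while SEMA3D, SEMA5A and SEMA5B had at most 4 counts. A count of 0 in a library allows up to 3 counts.

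The vehicle libraries were also compared with each other. NRP2 is among the members counted, and its low level in these libraries was part of the choice, so its values here are again a description. From course 1 to course 3, 2 of 19 members were at least 2-fold higher (NRP2 and SEMA3A) and 8 lower, which is 52.6%, against 11.3% of all genes (5.14% higher and 6.14% lower). From course 1 to course 5, 2 were higher (PLXNA1 and SEMA3A) and 10 lower, or 63.2%, against 19.5% of all genes (8.4% higher and 11.1% lower). The 10 lower members were PLXNA3, PLXNB2, PLXNB3, PLXNC1, PLXND1, SEMA3F, SEMA4B, SEMA4G, SEMA6B and SEMA6C. The median log2 ratio of the 19 members from course 1 to course 5 was -1.11, against 0.03 for all genes. From course 3 to course 5, 1 of 19 differed (PLXNB3, lower, 5.26%), and 0.368% of all genes were higher and 2.1% lower. Both differences from course 1 rest on that single library.

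**Figure D4:**
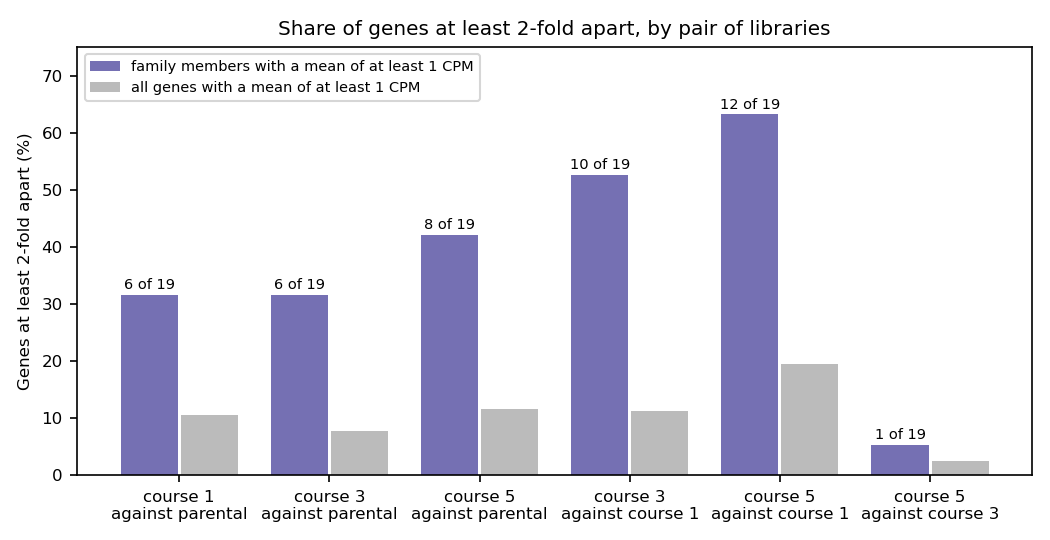
Share of genes at least 2-fold apart (%), by pair of libraries, for the 19 members with a mean of at least 1 CPM (purple) and for all 13589 such genes (grey). The share of members runs from 5.26% between courses 3 and 5 to 63.2% between courses 1 and 5.

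In edgeR, the tests across all genes called no member. The 3 vehicle libraries were tested as a group against parental cells. This test, by edgeR's quasi-likelihood method and Benjamini-Hochberg adjustment, called 0 of 18612 genes (0%), while 1045 had an unadjusted p under 0.05. DESeq2 called 211 (1.13%) and limma-voom 0. Of the 23 members tested other than NRP2, 5 had an unadjusted p under 0.05 in edgeR, and DESeq2 called 1, SEMA6A. The smallest adjusted p in edgeR among them was 0.288 for SEMA6A (log2 change -7.71). SEMA7A was higher in all 3 vehicle libraries (log2 change 1.19, edgeR adjusted p = 0.728). PLXNB1 was lower in all 3 (log2 change -1.04, edgeR adjusted p = 0.61). A slope over 0, 1, 3 and 5 courses also gave 0 calls of 18612 in edgeR (0%), with 2940 unadjusted, against 880 in DESeq2 (4.73%) and 0 in limma-voom. The smallest adjusted p of a member was 0.145, for PLXNA3 (-0.52 log2 units per course), and DESeq2's Wald test called 6 of the 23 members, all negative (PLXNA3, PLXNB3, PLXNC1, SEMA4G, SEMA6A and SEMA6C). The labels do not describe replicate cultures, and the p-values reflect the spread between these libraries alone.

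These counts changed with the libraries and the filter used, and the cause was not tested. Without course 1, 1578 genes passed the group comparison in edgeR (8.59%), and 8 of the 23 members did. PLXNA3, PLXNB1, PLXNB3, PLXNC1, SEMA6A and SEMA6C were lower and SEMA4A and SEMA7A higher, with 1 residual degree of freedom that rests on the closeness of courses 3 and 5. SEMA6A alone of the 23 passed without course 3 (0.137% of all genes passed), without course 5 (0.168%) and with no filter on low counts (0.0454%). The slope without course 1 passed for 10 of the 23 (15.2% of all genes), without course 3 for SEMA6A alone (0.175%), without course 5 for none (0.0271%) and with no filter for PLXNA3 alone (0.468%).

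Over the vehicle courses alone, without parental cells, a slope was called for 3642 genes (23.4%) and for 13 of 19 members other than NRP2, again with 1 residual degree of freedom. Of the 13, 11 had a negative slope, from -0.20 log2 units per course for SEMA4C to -0.84 for PLXNB3 (edgeR adjusted p = 0.000979). SEMA3A at 0.30 and PLXNA1 at 0.32 had a positive one.

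Other genes of the pathway were taken from 5 lists. As edgeR called 0 of 18612 genes (0%) in the group comparison and in the slope, its tests cannot set the list genes apart from others. Among 19 partners and alternative receptors, 10 had a mean of at least 1 CPM. PTK7, a co-receptor, was at least 2-fold higher in each vehicle library than in parental cells. It stood at 0.659 CPM in parental cells and 2.25, 2.33 and 1.93 CPM in courses 1, 3 and 5. L1CAM, a neuropilin partner, TREM2, a PLXNA1 partner, and HAVCR2 were at least 2-fold lower in courses 3 and 5. CD72, a SEMA4D receptor, was at least 2-fold lower in course 5 alone. Of all genes 10.5%, 7.69% and 11.6% were apart in courses 1, 3 and 5. Against parental cells, the median log2 ratio of all genes was 0.02, 0.01 and 0.02 in courses 1, 3 and 5. That of the 10 partners and receptors was 0.27, -0.51 and -0.69. The 3 with the most counts were CD44, TYROBP and ITGB1, at means of 173.0, 153.2 and 96.4 CPM. The VEGF receptor genes are in this list, and the VEGF family ligands of neuropilins form the next. VEGFA stood at 423.2, 413.9, 404.2 and 465.6 CPM and VEGFB at 19.7, 36.4, 14.3 and 11.5 CPM in parental cells and courses 1, 3 and 5, and neither was at least 2-fold from parental cells. The other 3 ligands had a mean under 1 CPM over the 4 libraries, although PGF, a placental VEGF relative, reached 1.39 CPM in course 1 (60 counts, against 30, 31 and 44 in parental cells and courses 3 and 5). VEGFC, the lymphatic growth factor that binds NRP2, was singled out after its values were seen. It had 47 counts in parental cells and 0 counts in each vehicle library.

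Of 18 plexin GTPases and exchange factors, 11 had a mean of at least 1 CPM. Of those 11, 0 were at least 2-fold from parental cells in courses 1 and 3 and 1 (RRAS, lower) in course 5, while 10.5%, 7.69% and 11.6% of all genes were. Below the minimum, TIAM1, a Rac exchange factor, had 24, 19, 70 and 66 counts in parental cells and courses 1, 3 and 5, and RRAS2 had 46, 18, 13 and 19. Both were singled out after their values were seen. The highest were RHOA, RANBP9 and RAC1, at means of 474.3, 227.1 and 84.5 CPM. The list's medians were 0.03, 0.16 and 0.44 in courses 1, 3 and 5. Of 21 cytoskeletal effectors and kinases, 18 had a mean of at least 1 CPM. Among the 18, with the same shares of all genes, MICAL2, CFL1 and MYO6 were at least 2-fold lower in course 1, DPYSL3 was lower in courses 3 and 5, and FYN and FER were higher in course 5. DPYSL4, below the minimum and also singled out after its values were seen, had 31, 80, 19 and 4 counts in parental cells and courses 1, 3 and 5. CFL1, encoding the actin-severing cofilin, stood at 498.5, 245.9, 339.6 and 361.8 CPM, while MICAL1 and FES, the others of the 3 highest, were within 2-fold of parental cells. Of 7 processing proteases, 6 had a mean of at least 1 CPM, of which PCSK6 was higher in course 5, and MMP14, ADAM10 and FURIN, the highest, were within 2-fold of parental cells in each course.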

How the data were processed

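The authors deposited raw read counts per Ensembl gene ID, 1 file for each of 4 libraries of the 8 samples in the labels. Per the submitters' processing notes, the tools were FastQC 0.11.5, TopHat2 2.0.11 and HTSeq 0.6p1, and the build was hg19. The names of the deposited files say reverse-stranded counting. All 58735 IDs matched GENCODE release 29, a GRCh38 annotation. The build of the counts is therefore unclear, and no gene coordinates are given for them. Summary rows held 24.6% to 29.8% of reads and were left out. Reads aligned to several places made up 21.3% in course 5, against 13.9%, 15.4% and 14.2% in parental cells and courses 1 and 3. Any bearing of this difference on the results was not tested. The promoters come from RefSeq (GRCh38.p14), which held 27 of the 31 members, and only the bases before the start were used.

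Tests on the counts used edgeR 4.0.16 under R 4.3.3 (TMM, filterByExpr with a minimum count of 10 and total of 15, quasi-likelihood test), DESeq2 1.42.0 and limma 3.58.1, with Benjamini-Hochberg adjusted p under 0.05 as the threshold and 2 residual degrees of freedom. Pairs of single libraries got no test but a log2 ratio of CPM and its exact binomial 95% interval. Genes apart had a mean of 1 CPM or more over the libraries, a ratio of 2-fold or more and an interval without 1. For a count of 0, 3 counts were used. Exon length is the union of GENCODE exons. Every member with at least 10 counts in a library was named, and from each pathway list the 3 genes with the highest mean. The members and lists were chosen with earlier results of these data known. The functions were tested on simulated data.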

Additional observations from a re-analysis of the deposited data

How the results depend on the processing

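The counts of members at least 2-fold apart held within 1.5 times under DESeq2 size factors and without composition scaling in all 6 pairs of libraries. At 1.5-fold they became 13 (course 1 against parental), 10 (course 3 against parental) and 6 (course 5 against course 3), and at 3-fold 2, 3 and 0. At 3-fold there were also 5 for course 3 against course 1 and 6 for course 5 against course 1. With no minimum level 10 members differed in course 1 against parental and 3 in course 5 against course 3. With a minimum of 5 CPM, 5 differed in course 5 against parental. The shares of all genes were taken only at 2-fold and 1 CPM, so member counts at other settings cannot be set against all genes. Without composition scaling 19 of 114 member ratios moved beyond their counting interval, the log2 ratio of PLXND1 in course 3 turning from 0.05 to -0.02, and with DESeq2 size factors 0 did.

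In the group comparison 13 genes and 1 member other than NRP2 (SEMA6A) passed in edgeR with no filter, and 211 and 1 in DESeq2. Leaving out a vehicle library gave between 25 and 1578 genes and between 1 and 8 members. For the slope, 134 genes and 1 member (PLXNA3) passed with no filter, 880 and 6 in DESeq2, and between 5 and 3642 genes and 0 and 13 members when a library was left out. All these member counts leave out NRP2, while the gene counts include it where it passed. The members tested other than NRP2 were 27 with no filter, 19 for the slope without parental cells and 23 in the other fits of this paragraph. The share of all genes that passed in each fit is given in the Results, and the member counts are to be read beside it. Fits with a library left out have 1 residual degree of freedom and the others 2. The cause of these changes was not tested. No paired analysis was possible because each state has a single library. Counts under about 10 per library, as for SEMA6A, limit the precision of a ratio.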
